A study of Mus musculus with 2 samples.

Results

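The genes described here are 10 genes of iron handling and heme turnover, namely Slc40a1, Hmox1, Tfrc, Fth1, Ftl1, Slc11a1, Slc11a2, Cd163, Spic and Vcam1. They were taken by symbol from bulk RNA-seq tables that list 24346 symbols, and all 10 were found in each table. Tregs were isolated as GFP+CD4+ cells of Foxp3-DTR-GFP (FDG) mice, in which the endogenous Foxp3 locus drives GFP, on day 15 after 50 μg of intratracheal bleomycin (BLM). 1 library came from spleen and 1 from lung, each made from the cells of 3 mice aged 10 to 16 weeks, and both groups carry the same reporter allele and received BLM. The dose and the age are those that the methods give for BLM treatment in general, and no library of untreated mice was analysed here. With 1 library per tissue the spread between samples is unknown, and no difference below was tested.

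Iron enters most cells bound to transferrin, through the transferrin receptor encoded by Tfrc, and is moved out of the endosome by the divalent metal transporter encoded by Slc11a2. Iron that is not used is stored inside ferritin, a shell built of heavy (Fth1) and light (Ftl1) chains, and leaves the cell through ferroportin (Slc40a1), the known cellular iron exporter. In the spleen, macrophages of the red pulp take up aged red blood cells, break the heme open with heme oxygenase 1 (Hmox1) and return the iron to the blood. These macrophages depend on the transcription factor encoded by Spic, carry VCAM-1 and, in part, CD163, the scavenger receptor for hemoglobin bound to haptoglobin. Slc11a1 encodes a metal transporter of the phagosome of macrophages and neutrophils.

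The values are FPKM, by definition fragments scaled to exon length and to mapped fragments, so that genes can be compared with each other within a library. Whether a further scaling between the libraries was applied is not given in the sources used here. They summed to 599633 in spleen and 808853 in lung. From the low values, about 9863249 and 12880563 reads were estimated to lie behind them, and the exact 95% intervals below (Clopper-Pearson) rest on such estimated reads and cover counting error only. Foxp3 had 18.7 FPKM in spleen and 41.8 in lung, Cd4 at 195 and 179 and Actb at 1325 and 1242. All 10 genes of a T cell list differed by less than 2-fold, with Cd3g the most abundant at 902 and 1103 FPKM. Of 8 Treg genes, 3 were over 2-fold higher in lung, among them Foxp3 and the inhibitory receptor gene Ctla4 at 221 and 601 FPKM, and 1 was over 2-fold lower, Lrrc32 at 69.4 and 30.4. Izumo1r led that list in spleen, at 512 and 318 FPKM, and Tnfrsf4 in lung, at 486 and 1004. Macrophage genes were present in both libraries, with Csf1r at 43.8 and 50.1 FPKM and Adgre1 at 14.6 and 24.3, both named after their values had been seen. In such bulk samples, fewer cells of a type and less RNA per cell cannot be told apart.

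The iron and heme genes did not differ in 1 direction. The ferritin genes Fth1 and Ftl1 were 5.19-fold and 3.84-fold higher in lung, 5 genes were over 2-fold lower in lung, and 3 differed by less than 2-fold. The lower genes were Slc40a1, Hmox1, Cd163, Spic and Vcam1, and Slc40a1, Spic and Vcam1 were over 20-fold lower. The study used 20-fold as its threshold for genes higher in lung Tregs only. For these counts, values under 0.1 FPKM were set to 0.1 in both libraries. Among all 24346 symbols, 11.0% were over 2-fold higher and 11.7% over 2-fold lower in lung, and 1.62% and 1.17% were over 20-fold higher and lower. Among the 12094 symbols at 1 FPKM or more in either library, which include all 10 genes, these shares were 17.8% and 15.5% at 2-fold and 3.27% and 2.35% at 20-fold. Of these genes, 7 were at 1 FPKM or more in both libraries. After rescaling to TPM, 8.72% of all symbols were over 2-fold higher and 18.7% over 2-fold lower. The median log2 ratio of lung to spleen was -0.75 over the 10 genes and 0.031 over the symbols at 1 FPKM or more in either library.

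**Figure D1:**
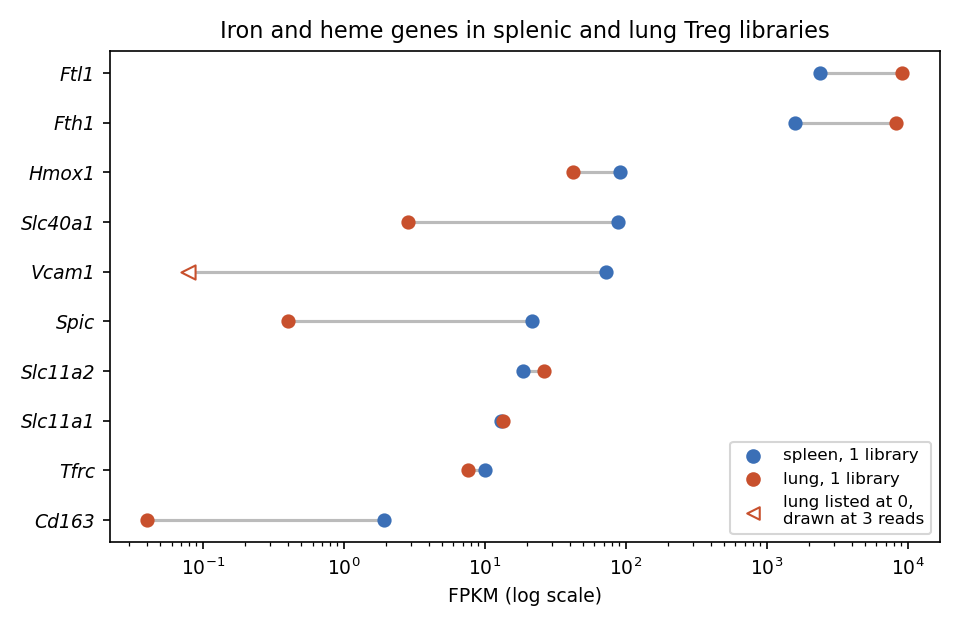
FPKM (log scale) of the 10 iron and heme genes in the splenic library (blue) and the lung library (red), 1 point per library, joined by a line per gene and ordered by the splenic value. The open triangle stands for Vcam1 in lung, which is listed at 0 and drawn at the 0.0782 FPKM that 3 reads would give. Fth1 and Ftl1 lie to the right in lung, whereas Slc40a1, Spic, Cd163 and Vcam1 lie far to the left.

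Ferritin heavy and light chain transcripts were the most abundant of the 10 genes in each library, and both were higher in lung. Fth1, which spans 9980598 to 9985098 on chromosome 19 (plus strand, GRCm38 or mm10, used for all positions), was at 1582 FPKM in the splenic library and 8215 in lung. Its 5.19-fold difference had a counting interval of 5.11 to 5.28. Ftl1, on the minus strand of chromosome 7 from 45457944 to 45459884, had 2372 FPKM in spleen and 9112 in lung, 3.84-fold higher with an interval of 3.78 to 3.90. The 2 intervals, which leave out the spread between samples, did not overlap. There were 0.667 FPKM of Fth1 per FPKM of Ftl1 in spleen and 0.902 in lung. Among all symbols, Ftl1 ranked 24 and Fth1 ranked 36 in spleen, and they ranked 3 and 5 in lung. The ferritin genes together took 0.659% of the FPKM sum in spleen and 2.14% in lung. Both remained over 2-fold higher with every scaling, floor and pseudocount tried, with the lowest values of 3.85-fold for Fth1 and 2.85-fold for Ftl1 after rescaling to TPM. How reads shared with ferritin pseudogenes were assigned is not given in the sources used here, so the level of both genes is uncertain to that extent.

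Genes of lung macrophages were higher in the same library. All 14 listed alveolar macrophage markers were higher there, at a summed level of 71.6 FPKM in spleen and 2343 in lung, and 3 of them, Ear1, Car4 and Krt79, were listed at 0 in spleen, Krt79 being named after its values had been seen. Car4 was at 81.3 and Ear1 at 13.6 FPKM in lung, and Plet1 had 0.0589 FPKM in spleen and 97.2 in lung. The most abundant genes of the list were Fabp5 in spleen, at 22.5 and 415 FPKM, and Chil3 in lung, at 17.4 and 1161. All 11 genes of a monocyte and interstitial macrophage list were higher as well, from a sum of 679 FPKM to 27764, most of it Lyz2, the lysozyme gene of myeloid cells, at 376 and 24947 FPKM. Trem2, a lipid receptor of macrophages, was at 0.109 and 151 FPKM and Cd14, a receptor for lipopolysaccharide, at 11.4 and 277. Both lists share genes with the red pulp list below, and of these Mrc1 and Csf1r were lower in lung after rescaling to TPM. None of the genes of either list was at 0 in lung. Their part in the ferritin values was not tested. Set against Cd3e, a subunit of the T cell receptor complex, Fth1 stood at 3.08 FPKM per FPKM in spleen and 22.2 in lung. Set against macrophage genes, the direction depended on the gene chosen. Per FPKM of Csf1r, the receptor for a macrophage growth factor, Fth1 stood at 36.1 in spleen and 164 in lung, whereas per FPKM of Cd68 it stood at 36.8 and 22.3 and per FPKM of Lyz2 at 4.204 and 0.329. Of the 33 macrophage markers above 0 in both libraries, Fth1 per marker was higher in lung for 17 and lower for 16, and Ftl1 was higher for 12 and lower for 21. Of the 37 markers, Ear1, Car4 and Krt79, at 0 in spleen, and Itgad, at 0 in lung, were left out. The counts depend on which markers were listed. These comparisons were added after the values had been seen.

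Ferritin, ferroportin and the transferrin receptor are known to share a regulatory element in their transcripts, the iron-responsive element, a hairpin that binds the iron regulatory proteins when iron is scarce. Bound at the start of a transcript, these proteins block its translation, and bound near the end of the Tfrc transcript they protect it from decay. The reference transcripts (GENCODE M21, GRCm38) were searched on the sense strand for a C, 5 bases, the loop CAGTGN or CAGAGN, and 5 bases that pair with the first 5, with G-U pairs allowed. The elements are shown because this search found a match in 4 of the 10 genes. FPKM do not measure a block of translation, whereas protection of Tfrc from decay would bear on its transcript level. Neither was tested. Of the 10 genes, Fth1, Ftl1, Slc40a1 and Tfrc held a match, against 2.38% of 21291 protein-coding genes, whose transcripts differ in length. Capitals mark the loop in each sequence of 27 bases, written as DNA from 5′ to 3′ along the transcript.
Fth1: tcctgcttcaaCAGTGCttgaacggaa
Ftl1: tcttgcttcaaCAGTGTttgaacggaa
Slc40a1: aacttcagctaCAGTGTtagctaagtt
Tfrc element 1: tttatcagtgaCAGAGTtcactataaa
Tfrc element 2: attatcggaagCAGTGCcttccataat
Tfrc element 3: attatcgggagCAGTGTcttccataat
Tfrc element 4: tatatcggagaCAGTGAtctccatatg
Tfrc element 5: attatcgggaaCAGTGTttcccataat
The Fth1 element lies at chr19:9982733-9982759 on the plus strand, that of Ftl1 at chr7:45459780-45459806 on the minus strand and that of Slc40a1 at chr1:45925466-45925492 on the minus strand, each in the 5′ UTR. The elements of Tfrc lie on the plus strand in the 3′ UTR, from chr16:32631161-32631187 to chr16:32631711-32631737. The Fth1 and Ftl1 elements differ at 2 of 27 positions, and that of Slc40a1 differs from each of them at 14. A match is a description of the sequence and not a measured site, and in the other 6 genes only these letters were not found. Only 1 reference transcript per gene was searched, so other transcripts, such as those of Slc11a2 and Cd163, were not covered. The search therefore does not show that the genes without a match lack the element.

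The transcripts in which a match was found differed in opposite directions between the libraries. Slc40a1, which encodes ferroportin, lies on the minus strand of chromosome 1 from 45908068 to 45926523 and has 8 exons. Its level was 87.8 FPKM in spleen and 2.87 in lung, which is 30.6-fold lower, with a counting interval of 25.2 to 37.4. Its values rested on about 2877 and 107 reads, and it was over 20-fold lower under each of the 10 other settings. There were 45.0 FPKM of ferritin transcripts, for iron storage, per FPKM of Slc40a1, for export, in spleen and 6046 in lung. Tfrc, on the plus strand of chromosome 16 from 32608920 to 32632794, had 10.02 FPKM in spleen and 7.62 in lung, 1.32-fold lower with an interval of 1.15 to 1.504. The counting intervals of Slc40a1, Tfrc and the ferritin genes did not overlap each other. They cover counting error only and not the spread between samples, which is unknown.

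Hmox1, the inducible enzyme that opens the heme ring and frees its iron, was lower in lung by a much smaller factor than Slc40a1. It lies on the plus strand of chromosome 8 from 75093621 to 75100589 with 91.0 FPKM in spleen and 42.5 in lung. The difference was 2.14-fold, with a counting interval of 1.95 to 2.35, and stayed over 2-fold under each setting tried, from 2.05-fold upwards. In spleen Slc40a1 and Hmox1 were at nearly the same level, with 0.965 FPKM of Slc40a1 per FPKM of Hmox1, and in lung this ratio was 0.0675. Hmox1 was the most abundant of the 10 genes after the ferritin genes in both libraries, whereas Slc40a1 was below Slc11a1, Slc11a2 and Tfrc in lung.

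Spic, Vcam1 and Cd163, the members chosen as genes of red pulp macrophages, were lower in lung together with Slc40a1. Of 15 other red pulp macrophage markers, given below, 12 were higher in lung and 3 were lower. Spic encodes an Ets family transcription factor and lies on the minus strand of chromosome 10 from 88674772 to 88685015. Its level was 21.6 FPKM in spleen and 0.402 in lung, about 349 and 7.35 reads, and was 53.8-fold lower with a counting interval of 27.2 to 142. With a pseudocount of 1 FPKM this became 16.1-fold.

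Vcam1 encodes an adhesion receptor that binds integrins and lies on the minus strand of chromosome 3 from 116109949 to 116129688. It had 72.9 FPKM in spleen, about 2464 reads, and was listed at 0 in lung. If the 0 stands for no reads, a count of 0 allows up to 0.0782 FPKM in lung (3 reads), against which Vcam1 was 932-fold lower, and its exact counting interval starts at 758-fold. Among the 10225 symbols with a known length that were listed at 0 in lung, Vcam1 had the most estimated reads in spleen, and the next had 447. Endothelial cells can also express Vcam1, and of 9 endothelial marker genes 3 were listed at 0 in lung and 3 were at 1 FPKM or more in either library, with a summed level of 56.4 FPKM in spleen and 41.8 in lung, most of it Pecam1 at 54.8 and 31.7. Pecam1 is also expressed by leukocytes. The other endothelial genes differed in both directions. Cldn5, a tight junction gene, had 0.160 FPKM in spleen and 6.54 in lung and Vwf 0.425 and 2.03, whereas Stab2, a scavenger receptor gene of sinusoidal endothelium named after its values had been seen, was at 0.962 FPKM in spleen, about 79.96 reads, and listed at 0 in lung, as Vcam1 was. Stromal cells can express Vcam1 too, and the 9 stromal markers summed to 1.19 FPKM in spleen and 49.5 in lung, with Dcn, a matrix proteoglycan, at 0.122 and 22.2, the collagen genes Col1a2 at 0.0391 and 13.4 and Col3a1 at 0 and 4.74, and Ccl19, the most abundant in spleen, at 0.754 and 2.32. The part of endothelial and stromal cells in the Vcam1 values was not tested.

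Cd163 was the least abundant of the 10 genes in spleen, at 1.92 FPKM, and was at 0.0404 FPKM in lung. It lies on the plus strand of chromosome 6 from 124304656 to 124330527. The lung value rested on about 2.01 reads, the ratio of the listed values was 47.4-fold, and its counting interval of 12.8 to 400.2 was the widest of the genes above 0 in both libraries. With a floor of 1 FPKM, Cd163 was only 1.92-fold lower, since that floor lies near its splenic level.

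Other red pulp macrophage genes differed in both directions. Slc40a1, Spic, Vcam1 and Cd163 summed to 184 FPKM in spleen and 3.31 in lung. In a list of 15 other red pulp macrophage markers, 12 were higher in lung and 3 were lower, and together they reached 479 FPKM in spleen and 1774 in lung. The lower ones, of which Cd5l and Treml4 were named after their values had been seen, were Cd5l (15.1 and 3.86 FPKM), Treml4 (22.4 and 6.60 FPKM) and Itgad, an integrin subunit at 5.57 FPKM in spleen and listed at 0 in lung. The higher ones included Clec4n (27.9 and 275 FPKM), Cd68 (43.0 and 368 FPKM), a lysosomal protein of macrophages, and C1qb of complement (129 and 560 FPKM). Many of these are shared by macrophages of both organs, and Itgad was the single one at 0 in lung. Per FPKM of Csf1r, Slc40a1 was at 2.001 in spleen and 0.0572 in lung, Spic at 0.493 and 0.00802 and Hmox1 at 2.07 and 0.847. Slc40a1 and Spic were lower in lung per FPKM of each of the 33 macrophage markers above 0 in both libraries, and Hmox1 was lower for 31 and higher for 2. For Slc40a1 and Spic this follows from their own folds, since the lowest of the 33 by ratio, Cd5l, was 3.93-fold lower. The counts for Hmox1, itself 2.14-fold lower, follow in the same way. Of the 33, only Cd5l and Treml4 (3.39-fold) were lower by more. Itgad, at 0 in lung, was left out of these counts. The part of a change in the kind or number of macrophages in these values was not tested.

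**Figure D2:**
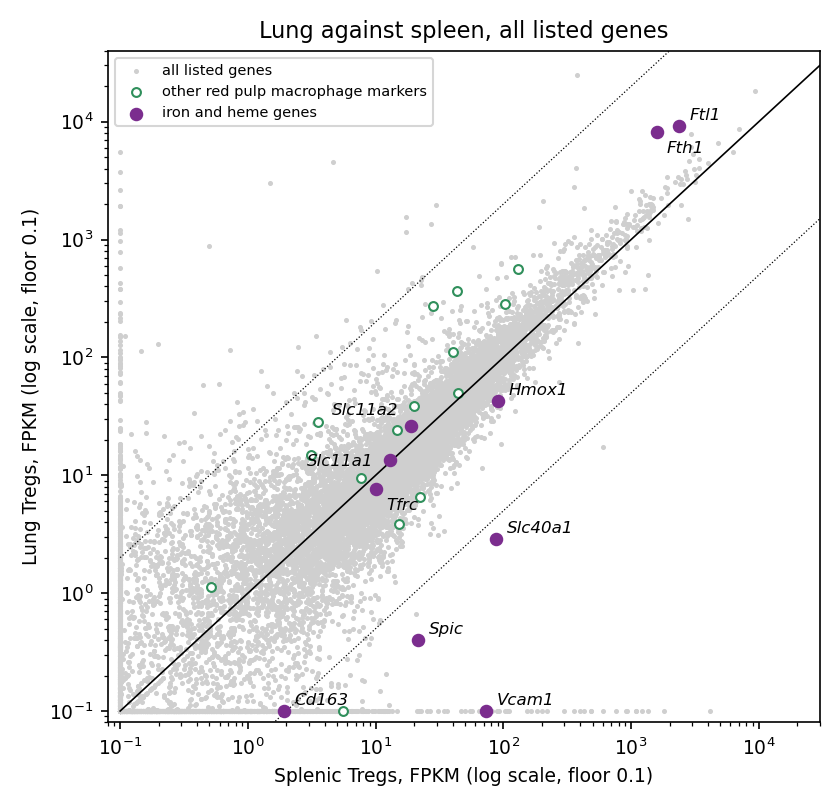
FPKM in lung against FPKM in spleen for all 24346 listed symbols (grey, log axes, values under 0.1 drawn at 0.1), with the 10 iron and heme genes (purple, named) and 15 other red pulp macrophage markers (open green). The solid line marks equal values and the dotted lines 20-fold differences. Slc40a1, Spic and Vcam1 lie below the lower dotted line, whereas 12 of the 15 green circles lie above the line of equal values.

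The metal transporters of the Slc11 family were near equal in the libraries. Slc11a1, on the plus strand of chromosome 1 from 74375195 to 74386062, had 13.0 FPKM in spleen and 13.5 in lung, a ratio of 1.04 with a counting interval of 0.887 to 1.23. Its direction depended on the scaling, since it was lower in lung in 3 of 10 other settings, those that rescale to TPM (1.30-fold lower), to equal upper quartiles or to Csf1r. Slc11a2, on the minus strand of chromosome 15 from 100387898 to 100425072, had 18.8 FPKM in spleen and 26.3 in lung. It was 1.40-fold higher with an interval of 1.27 to 1.54, and 1.04-fold higher after rescaling to TPM. Slc11a2 exceeded Slc11a1 in each library, by 1.45-fold in spleen and 1.95-fold in lung.

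Within the splenic library the order of the genes from the highest FPKM was Ftl1, Fth1, Hmox1, Slc40a1, Vcam1, Spic, Slc11a2, Slc11a1, Tfrc and Cd163. In the lung library it was Ftl1, Fth1, Hmox1, Slc11a2, Slc11a1, Tfrc, Slc40a1, Spic, Cd163 and Vcam1. The first 3 places were the same, and Slc40a1, Vcam1 and Spic stood above Tfrc in spleen and below it in lung. By rank among all symbols, Slc40a1 stood at 1141 in spleen and 9584 in lung, Spic at 4208 and 11966 and Hmox1 at 1094 and 2577. There were 157.8 FPKM of Fth1 per FPKM of Tfrc in spleen and 1078 in lung.

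Genes around these 10 in the pathway were taken from 7 lists of 69 genes. Of them 66 were listed and 50 were at 1 FPKM or more in either library. Most differed little, since 38 of the 50 lay within 2-fold, 8 (16%) were over 2-fold higher and 4 (8%) over 2-fold lower in lung, against the 17.8% and 15.5% of all symbols at that level. Their median log2 ratio was 0.45, and with TPM in place of FPKM the log2 ratios above the floor are 0.43 lower.

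Among genes of iron uptake and transport, 8 of 14 were at 1 FPKM or more, of which 1 was over 2-fold higher and 2 over 2-fold lower in lung. Trf, which encodes transferrin, had 82.0 FPKM in spleen and 253 in lung, 3.09-fold higher. Slc39a14, a zinc and iron importer, was at 3.17 and 0.218 FPKM, 14.6-fold lower, on about 4.84 reads in lung. Ltf, the iron-binding lactoferrin of neutrophil granules, was at 11.6 FPKM in spleen and listed at 0 in lung, and was the single pathway gene past 20-fold. If the 0 stands for no reads, its exact counting interval starts at 93.3-fold lower, and with a floor of 1 FPKM it was 11.6-fold lower. Of 8 genes of iron export and the hepcidin axis, 5 were at 0 in both libraries, among them Hamp, which encodes hepcidin and was named after its value had been seen. Cp, a ferroxidase that aids export, was at 0.340 and 2.17 FPKM, and Hfe, which shapes hepcidin control, was the most abundant at 11.5 and 20.1 FPKM.

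The iron regulatory proteins that bind the elements shown above belong to a list of ferritin turnover, of which 6 of 7 listed genes were at 1 FPKM or more and 5 were within 2-fold. Aco1, which encodes iron regulatory protein 1, had 12.2 FPKM in spleen and 3.27 in lung, 3.74-fold lower. Ireb2, which encodes iron regulatory protein 2 and was named after its value had been seen, was at 6.60 and 4.84 FPKM. Pcbp1, an iron chaperone that loads ferritin, was the most abundant gene of the list, at 163 and 113 FPKM. Fbxl5, the iron sensor of the ligase that removes iron regulatory protein 2, was at 40.8 and 64.7 FPKM, and Ncoa4, the receptor for ferritin breakdown, at 48.0 and 64.0, both within 2-fold and named after their values had been seen, and Ncoa4 was lower in lung after rescaling to TPM.

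The list of heme and hemoglobin clearance leaves out Hmox1 and Cd163, which are among the 10 genes and were lower in lung. Of its 8 listed genes, 7 were at 1 FPKM or more and all 7 were higher in lung. After rescaling to TPM, Abcg2 was lower. Only 2 of the 7 were over 2-fold higher and 5 were within 2-fold, against 17.8% of all symbols at that level over 2-fold higher. The median log2 ratio of this list was 0.71, and 0.28 after rescaling to TPM. Hp, which encodes haptoglobin, had 8.65 FPKM in spleen and 95.7 in lung, 11.1-fold higher. Cd163, whose product takes up hemoglobin bound to haptoglobin, was lower, on about 2.01 reads in lung. Lrp1, the receptor for heme bound to hemopexin, was at 0.972 and 5.92 FPKM, 6.09-fold higher. Hmox2, the constitutive heme oxygenase, was at 69.5 and 107 FPKM, so that in lung it exceeded Hmox1 and in spleen it did not. In heme synthesis, 7 of 8 genes at 1 FPKM or more lay within 2-fold. The exception was Alas1, the first and rate-limiting enzyme in non-erythroid cells, at 12.03 FPKM in spleen and 77.7 in lung, 6.45-fold higher, whereas Urod, a later enzyme, was at 50.4 and 76.8 FPKM. All 9 genes of iron-sulfur cluster assembly, the mitochondrial use of iron, were within 2-fold. The most abundant was the scaffold gene Iscu at 87.8 and 140 FPKM. The median log2 ratio of this list was 0.43 and became -0.0032 after rescaling to TPM. With the same rescaling, the median over symbols at 1 FPKM or more in both libraries went from 0.016 to -0.416.

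Hmox1 and the ferritin genes are known targets of the activator NRF2 (Nfe2l2) and the heme-sensing repressor BACH1. In a list of 11 such regulators and targets, 10 were at 1 FPKM or more, of which 3 were over 2-fold higher, 1 over 2-fold lower and 6 within 2-fold. Nfe2l2 had 32.4 FPKM in spleen and 68.9 in lung and Bach1, named after its values had been seen, 2.56 and 5.14, each close to 2-fold higher and under 2-fold after rescaling to TPM. Srxn1, a sulfiredoxin gene, was at 1.74 and 5.22 FPKM, 2.998-fold higher. Bach2, a related repressor of lymphocytes, was at 8.85 and 2.01 FPKM, 4.40-fold lower. The known NRF2 targets did not share a direction. Nqo1, a quinone reductase gene, was at 0.933 FPKM in spleen, about 13.0 reads, and listed at 0 in lung, and Gclm (18.01 and 20.7 FPKM) and Gclc (23.8 and 23.6 FPKM), the subunits of the first enzyme of glutathione synthesis, were within 2-fold. These genes were named after their values had been seen.

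**Figure D3:**
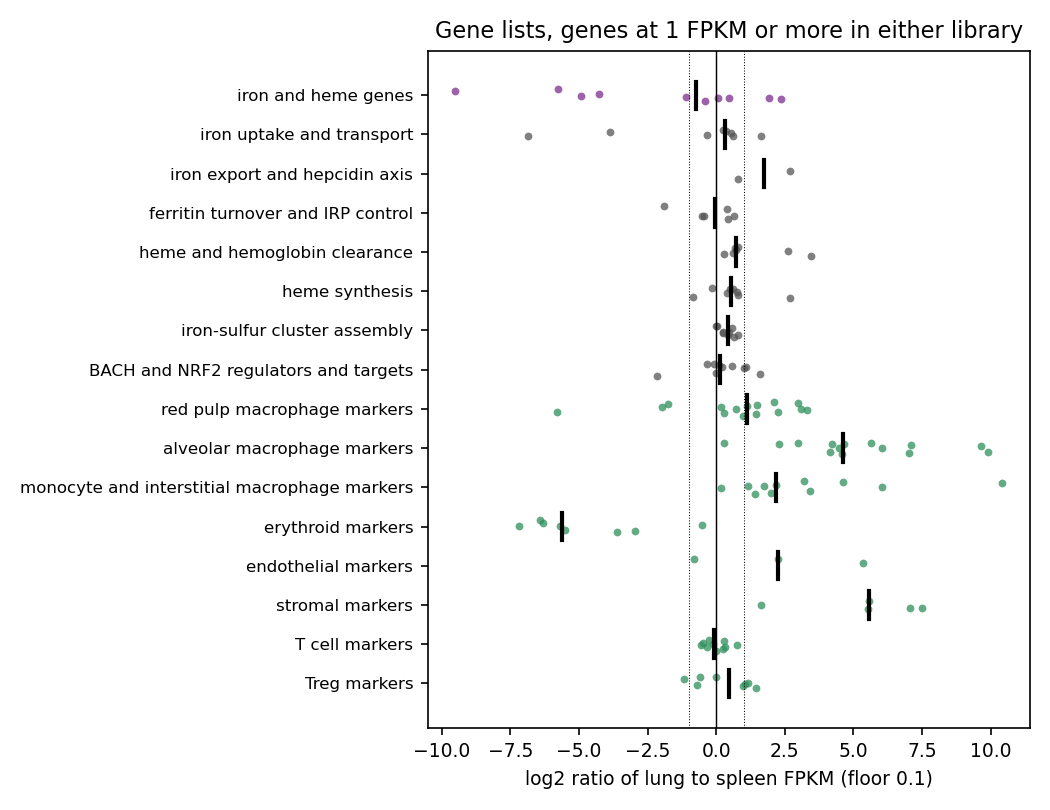
Log2 ratio of lung to spleen FPKM (values under 0.1 set to 0.1) for each gene at 1 FPKM or more in either library, with 1 point per gene and 1 row per list. Purple marks the 10 iron and heme genes, grey the pathway lists and green the cell type markers, black bars are medians and dotted lines mark 2-fold. The iron and heme genes span -9.51 to 2.38 around a median of -0.75, whereas the T cell markers lie within the dotted lines.

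**Figure D4:**
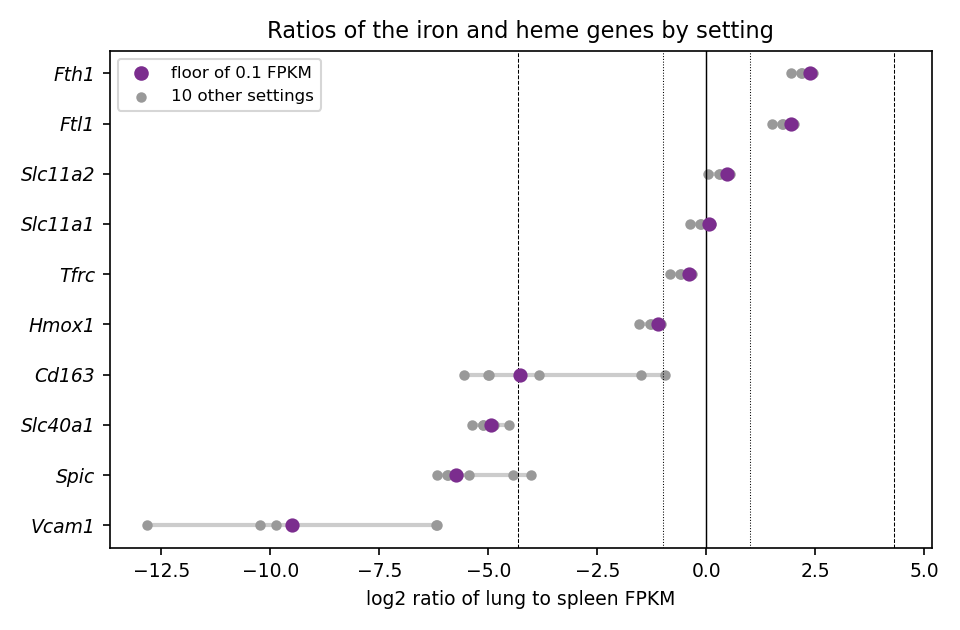
Log2 ratio of lung to spleen for the 10 genes with a floor of 0.1 FPKM (purple) and under 10 other settings of floor, pseudocount and scaling (grey), with dotted lines at 2-fold and dashed lines at 20-fold. Slc11a1 crosses 0, the ferritin genes stay above 2-fold, and the ratios of Vcam1 and Cd163 spread with the floor, from -12.83 to -6.19 for Vcam1 and from -5.57 to -0.94 for Cd163.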

How the data were processed

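Full-length cDNA of sorted GFP+CD4+ cells (SMART-Seq HT, no molecular identifiers) had been read as 75-base single ends. Cuffdiff 2.2.1 gave the authors' deposited FPKM, from reads placed on mm10 by TopHat2 2.1.1 (per the submitters' notes with SAMtools 0.1.18 and Bowtie2 2.2.8). The annotation, the options and any scaling between libraries are not given in the sources used here.

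Lung FPKM were divided by splenic FPKM after values under 0.1 were set to 0.1. Depth is not stated, so reads were estimated from transcript lengths (GENCODE M21, found for 97.3% of symbols), a mean fragment of 200 (SD 80) and a shortest fragment of 75. 1 read was worth 0.0964 FPKM in spleen and 0.0849 in lung at 1 kb, and 72.8% and 74.7% of low values came within 0.1 of whole reads. PCR copies are counted, and genes with several transcript lengths (Fth1, Slc11a2, Cd163) have approximate reads. The steps were tested on simulated data drawn from the same length model, without PCR copies or shared reads. This checked the code and not the estimated reads of these libraries.

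The genes and lists were chosen with earlier results of these data known. In each list the 3 largest folds over 2-fold (at 1 FPKM or more), any pathway gene over 20-fold and the most abundant gene were to be named, and other genes are marked as named after their values had been seen. No test was possible with 1 library per tissue. Python 3.11.15 was used with scipy 1.17.1, numpy 2.4.6, matplotlib 3.10.9 and pandas 2.3.3.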

Additional observations from a re-analysis of the deposited data

How the results depend on the processing

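With 10 other settings of floor, pseudocount and scaling, of which scaling to T cell markers and to Csf1r was chosen after seeing the data, 3 of 100 values of the 10 genes had the opposite sign, all of them of Slc11a1. The genes over 2-fold higher in lung numbered 2 and those over 20-fold higher 0 in each setting. Those over 2-fold lower numbered 4 or 5, and those over 20-fold lower 2 to 4. With a threshold of 3-fold in place of 2-fold, 2 genes were higher and 4 lower, and with 10-fold in place of 20-fold, 0 were higher and 4 lower.

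Over all symbols the counts moved more. With a floor of 0.01 FPKM, 867 symbols were over 20-fold higher and 1256 lower, against 395 and 284. With a floor of 1 FPKM these were 102 and 51, and with a pseudocount of 1 FPKM 78 and 49, with 1763 and 1486 or 1771 and 1475 over 2-fold, against 2678 and 2850. After rescaling to TPM, 4555 were over 2-fold lower and 459 over 20-fold lower. The filter at 1 FPKM left 1872 over 2-fold lower. TPM lowered the median log2 ratio of symbols at 1 FPKM or more in both libraries by 0.43, equal upper quartiles by 0.18 and Csf1r by 0.19. Of 135 list medians under other settings, 18 moved by 0.5 or more. With TPM, the median log2 ratio became -0.12 for iron uptake (from 0.31), -0.0032 for iron-sulfur cluster assembly (from 0.43) and -0.28 for BACH and NRF2 (from 0.15), the last also negative with equal upper quartiles, and that of ferritin turnover (-0.024) became 0.0039 with a pseudocount of 1 FPKM. The cause was not tested. No paired analysis was possible because each tissue has 1 library, so no library could be left out either.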

Other observations

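Genes of red blood cells and their precursors, the source of the heme that red pulp macrophages handle, were found mainly in the splenic library. Of 15 erythroid genes 14 were listed and 8 were at 1 FPKM or more, all of them lower in lung, 7 over 2-fold and 5 over 20-fold. The latter count rests on the floor, since it was 0 with a floor of 1 FPKM or a pseudocount of 1 FPKM, 3 with at least 3 reads and 6 with a floor of 0.01 FPKM or with TPM, and the median log2 ratio was -5.61 with the floor of 0.1 FPKM and -2.66 with that of 1 FPKM. The summed level was 72.3 FPKM in spleen and 15.3 in lung, and 9 of the 14 were listed at 0 in lung. Hba-a1, an alpha globin gene, was at 14.6 FPKM in spleen and Car1, a carbonic anhydrase of red cells, at 7.91 FPKM, both listed at 0 in lung. Hbb-b2, a beta globin gene, was at 8.46 FPKM in spleen and listed at 0 in lung. Globin genes share near-identical sequence, so the split between them is uncertain. Gata1, which is also expressed in mast cells and megakaryocytes, was the most abundant, at 19.9 FPKM in spleen and 13.8 in lung. No explanation was tested for these values.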
